A study of Mus musculus with 9 samples.

Results

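The IL-20 subfamily comprises small cytokines of the IL-10 family and the receptor chains through which they act. The 10 genes followed here were the 5 cytokine genes Il19, Il20, Il24, Il22 and Il10, and the 5 receptor genes Il20ra, Il20rb, Il22ra1, Il22ra2 and Il10rb. They were found by gene symbol among the 52550 genes of the count table, and all 10 were among the 22430 genes that passed the filter on low counts. The family was chosen by measured values of these same libraries: the change of Il19 between imiquimod-treated and vaseline-treated skin was among the largest of all genes. The members' values in that contrast are therefore given here as a description, without p-values.

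RNA had been sequenced from the ear dermis of male C57BL/6 mice (C57BL/6J in the study's methods) aged 8 weeks, whose genotype is labelled "wide type". In the VAS+H2O group the ears were treated with vaseline and the mice received water by gavage, and in the IMQ+H2O group the ears were treated with imiquimod, a Toll-like receptor agonist that gives psoriasis-like skin inflammation, with the same water gavage. In the IMQ+XYF group imiquimod was combined with gavage of XYF, a decoction of Chinese herbs named Xiao-Yin-Fang. Topical treatment lasted 5 days and gavage 10 days, and each group held 3 libraries. The study's methods mention RNA from the ear sheets of more than 1 mouse without stating whether a library pooled animals, so the p-values below measure the spread between libraries.

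Total counts ran from 28756305 to 79836881 per library. Levels are given as CPM, counts per 1000000 counts of a library size scaled by the TMM method, and 3 counts, the smallest number treated as a signal, corresponded to 0.0373 to 0.103 CPM. Fibroblast markers were abundant in all libraries, with a summed level of 10985 to 26277 CPM and 8 of 8 markers detected, so the labelled tissue was borne out by its markers. Keratinocyte transcripts were present too: the 10 keratinocyte markers summed to 2535 to 15541 CPM, so the sheets also held epidermal RNA, and 1 library, IMQ+XYF replicate 1, had by far the highest sum. In tissue RNA of this kind, fewer cells of a type and less RNA per cell cannot be told apart.

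IL-19, IL-20 and IL-24 bind the type I IL-20 receptor, made of the IL20RA and IL20RB chains, and IL-20 and IL-24 also bind the type II receptor, in which IL22RA1 takes the place of IL20RA. IL-22 signals through IL22RA1 together with IL10RB, the chain that also serves the IL-10 receptor, while IL22RA2 is a secreted protein that binds IL-22 and keeps it from its receptor. The receptor chains specific to the family sit mainly on epithelial cells such as keratinocytes, in which they act through JAK1, TYK2 and STAT3. In skin the ligands are known as drivers of keratinocyte proliferation, of antimicrobial peptides and of delayed differentiation.

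On the GRCm38 assembly the 4 cytokine genes Il24, Il20, Il19 and Il10 lie together on chromosome 1 within 142.9 kb, from 130882074 to 131024974. Il24 (130882074 to 130887454), Il20 (130906985 to 130911451) and Il19 (130932656 to 130940115) are on the minus strand, and Il10 (131019845 to 131024974) is on the plus strand. Il22 lies apart on chromosome 10 (118204942 to 118210047). On the same chromosome Il22ra2 (19621998 to 19634681) and Il20ra (19712570 to 19760053) are close to each other, whereas Il20rb is on chromosome 9 (100457719 to 100486788), Il22ra1 on chromosome 4 (135728172 to 135752140) and Il10rb on chromosome 16 (91406164 to 91425834).

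The promoter of Il19 is shown because Il19 was the family member with a called change. RefSeq promoters on GRCm38.p6 were at hand for 6 of the 10 members (Il19, Il20, Il22, Il20ra, Il20rb and Il22ra1). The 250 bases before the RefSeq start of Il19, chr1:130940116-130940365 on the minus strand, read 5′ to 3′ as follows, with matches to the searched motifs in capitals.
Il19: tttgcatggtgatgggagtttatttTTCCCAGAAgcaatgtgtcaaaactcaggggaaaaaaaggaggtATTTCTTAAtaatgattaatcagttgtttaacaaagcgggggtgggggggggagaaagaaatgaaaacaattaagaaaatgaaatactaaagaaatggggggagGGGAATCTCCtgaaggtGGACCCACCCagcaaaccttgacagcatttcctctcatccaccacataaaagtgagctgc
Both strands were searched. The STAT motif TTCNNNGAA began 225 bases before the start, on the strand of the gene, and was held by 7.02% of all 32851 RefSeq promoters of this length. The C/EBP motif TTNNGNAAT was matched on the other strand, 181 bases before the start (10.2% of promoters). The NF-kB motif, GGG and CC with 5 bases of any kind between them, was matched at 77 bases on the gene's strand and at 60 bases on the other, and was common, at 45.8% of promoters. The 4 matches did not overlap, and the AP-1 motif TGANTCA (6.75% of promoters) was not among these letters.

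Il19 went from next to nothing in vaseline-treated dermis to several CPM in every imiquimod-treated library, and its level with XYF was close to that without. IL-19 is a cytokine of myeloid cells and keratinocytes. In the VAS+H2O libraries 0, 3 and 3 counts were found (0, 0.0834 and 0.0402 CPM). In IMQ+H2O there were 116, 320 and 610 counts (3.995, 7.76 and 11.9 CPM), and in IMQ+XYF 440, 274 and 842 counts (5.48, 5.57 and 13.7 CPM). Every imiquimod-treated library therefore lay above every vaseline library, whereas the IMQ+H2O and IMQ+XYF ranges overlapped over most of their width. The summed counts, scaled by library size, were 218 times as high in IMQ+H2O as in VAS+H2O (95% counting interval 99.7 to 595, which covers counting error and not the spread between libraries).

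The fitted log2 fold change of Il19 in IMQ+H2O against VAS+H2O was 7.55 (SE 0.80). It was the 1 member called of 10 in this contrast, where a call required an adjusted p of at most 0.05 and an absolute log2 fold change of at least 1, and where 0.994% of all genes tested were called. Il19 is the gene for which the family was chosen, so this count carries no weight of its own. The call was lost without VAS+H2O replicate 3, at a log2 fold change of 7.56.

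In IMQ+XYF against IMQ+H2O the log2 fold change of Il19 was 0.06 (SE 0.52, 95% confidence interval -1.11 to 1.23; adjusted p = 0.974, edgeR's quasi-likelihood test). The interval thus takes in both a lower and a higher level of about 2-fold. The IMQ+H2O libraries on which Il19 was chosen are the reference of this contrast, so its value and p are not free of that choice. Without IMQ+XYF replicate 3 the value was -0.52, and without IMQ+H2O replicate 1 it was -0.25.

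IMQ+XYF against VAS+H2O shares with the first contrast the vaseline libraries on which Il19 was chosen, so its value there is a description too and carries no weight of its own. Il19 had a log2 fold change of 7.61 (SE 0.80) and was again the 1 member called of 10, against 1.20% of all genes tested. The call was lost without VAS+H2O replicate 2 (8.23) and without VAS+H2O replicate 3 (7.62).

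The summed neutrophil markers were higher in every imiquimod-treated library than in any vaseline library. All 10 of 10 were detected, their summed level was 128 to 161 CPM in VAS+H2O, 388 to 940 CPM in IMQ+H2O and 240 to 679 CPM in IMQ+XYF, and 5 of the 9 tested were called higher by imiquimod, against 0.646% of all genes. No neutrophil marker was at 0 in all libraries. S100a8 and S100a9, also listed below as epidermal genes, were among the 5 called and held much of the sum with imiquimod. In IMQ+XYF replicate 2 they were at 61.7 and 80.6 CPM, of a sum of 240 CPM. Their highest vaseline values were 6.003 and 7.89 CPM, so the sum does not show how the other markers moved. The part of neutrophils in the Il19 level was not tested.

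**Figure D1:**
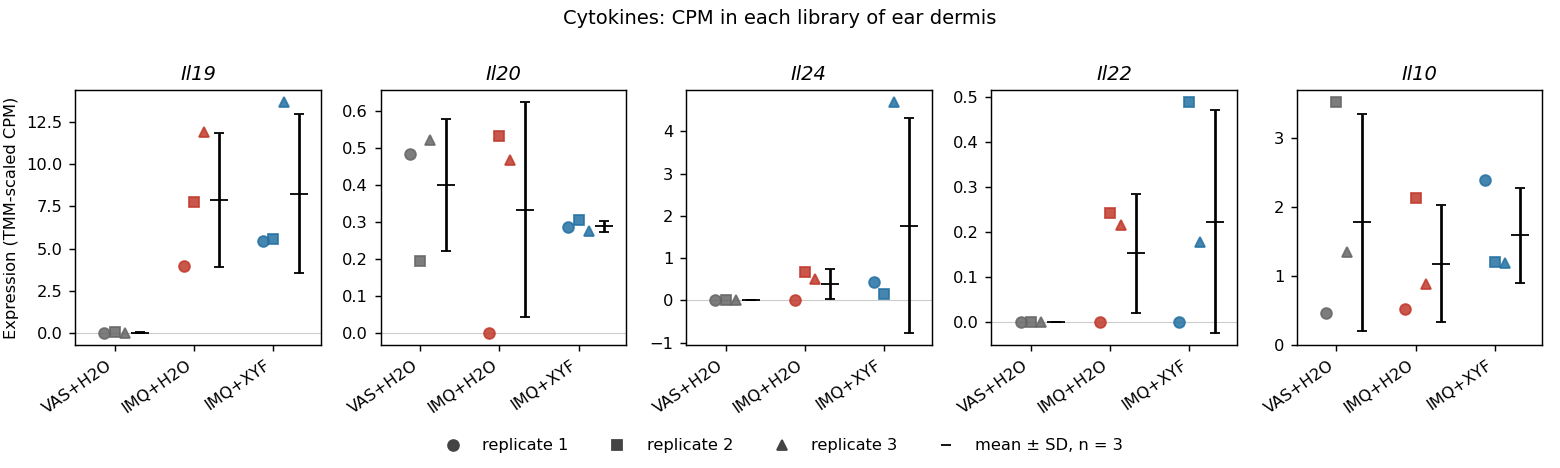
Expression of the 5 cytokine genes in TMM-scaled CPM (vertical axes, linear, each with its own range) in the 3 groups; points are libraries, shaped by replicate number, and bars give the mean ± SD (n = 3). Il19 is at 3.995 to 13.7 CPM in all 6 imiquimod-treated libraries and at most 0.0834 CPM with vaseline, while Il24 in IMQ+XYF is carried by replicate 3.

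Il24, whose product shares both IL-20 receptors, was absent from the counts of all 3 vaseline libraries. IMQ+H2O had 0, 28 and 26 counts (0, 0.679 and 0.507 CPM) and IMQ+XYF had 35, 8 and 289 counts (0.436, 0.163 and 4.69 CPM). The mean level was at least 6.04-fold higher in IMQ+H2O and at least 26.9-fold higher in IMQ+XYF than the level that 3 counts per vaseline library would give. A single library, IMQ+XYF replicate 3, held 289 of the 332 counts of its group.

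Between IMQ+XYF and IMQ+H2O the log2 fold change of Il24 was 2.10 (SE 1.41; adjusted p = 0.574, edgeR), and it was -0.41 without IMQ+XYF replicate 3. The 2 groups overlapped. In IMQ+XYF against VAS+H2O Il24 was not called by edgeR (adjusted p = 0.127), although every IMQ+XYF library lay above every vaseline library, a pattern seen in that direction in 11.7% of all genes. DESeq2, which called 3.46% of its genes there, called it (adjusted p = 0.0054). Over all alternatives its adjusted p ran from 0.0054 to 0.268. With no vaseline count, Il24 passed the filter on low counts only through imiquimod-treated libraries. Its separation from vaseline and these p-values are therefore a description and carry no weight of their own.

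Il22, the cytokine of T cells and innate lymphocytes that acts on epithelia, was barely detected. No count was found in the vaseline libraries, against 0, 10 and 11 counts in IMQ+H2O (0, 0.243 and 0.215 CPM) and 0, 24 and 11 counts in IMQ+XYF (0, 0.488 and 0.179 CPM). The means were at least 2.33-fold and at least 3.40-fold above the vaseline floor of 3 counts per library. In each imiquimod-treated group, 1 library was thus without Il22 and the other two held some. The groups could not be separated from each other at this depth: the log2 fold change for XYF was 0.42 (SE 1.42; adjusted p = 0.926, edgeR). Iltifb, a near-identical copy of Il22, had 0 counts in all 9 libraries, and how reads of the copies were divided is uncertain.

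Il20, which shares the receptor and the genomic neighbourhood of Il19, was low throughout. Its level was 0.485, 0.195 and 0.523 CPM in VAS+H2O, 0, 0.534 and 0.468 CPM in IMQ+H2O, and 0.286, 0.305 and 0.276 CPM in IMQ+XYF. The 3 groups overlapped, and IMQ+H2O replicate 1 was the library with no count. The log2 fold change by imiquimod was -0.23 (SE 0.84). For XYF it was -0.26 (SE 0.84; adjusted p = 0.922, edgeR), and for IMQ+XYF against VAS+H2O -0.49 (SE 0.83; adjusted p = 0.820).

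Il10, which encodes the anti-inflammatory founder of the family, varied more within groups than between them. Its level was 0.461, 3.53 and 1.35 CPM in VAS+H2O, 0.517, 2.13 and 0.878 CPM in IMQ+H2O, and 2.39, 1.20 and 1.19 CPM in IMQ+XYF. The highest and the lowest value were both from vaseline libraries. The log2 fold change by imiquimod was -0.58 (SE 0.73), and for XYF it was 0.43 (SE 0.73; adjusted p = 0.837, edgeR).

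Per kilobase of exon, the makeup of the ligands for the type I receptor shifted to Il19. Its share of the summed level of Il19, Il20 and Il24 was 0 to 30.7% in VAS+H2O, 87.8 to 100% in IMQ+H2O and 76.7 to 92.8% in IMQ+XYF. The lowest share among imiquimod-treated libraries was in IMQ+XYF replicate 3, the library with the high Il24. The share restates the change of Il19, for which the family was chosen, and its ends rest on few counts. In VAS+H2O replicate 2 the 30.7% came from 3 counts of Il19 and 7 of Il20. In IMQ+H2O replicate 1 the 100% came with 0 counts of Il20 and Il24.

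**Figure D2:**
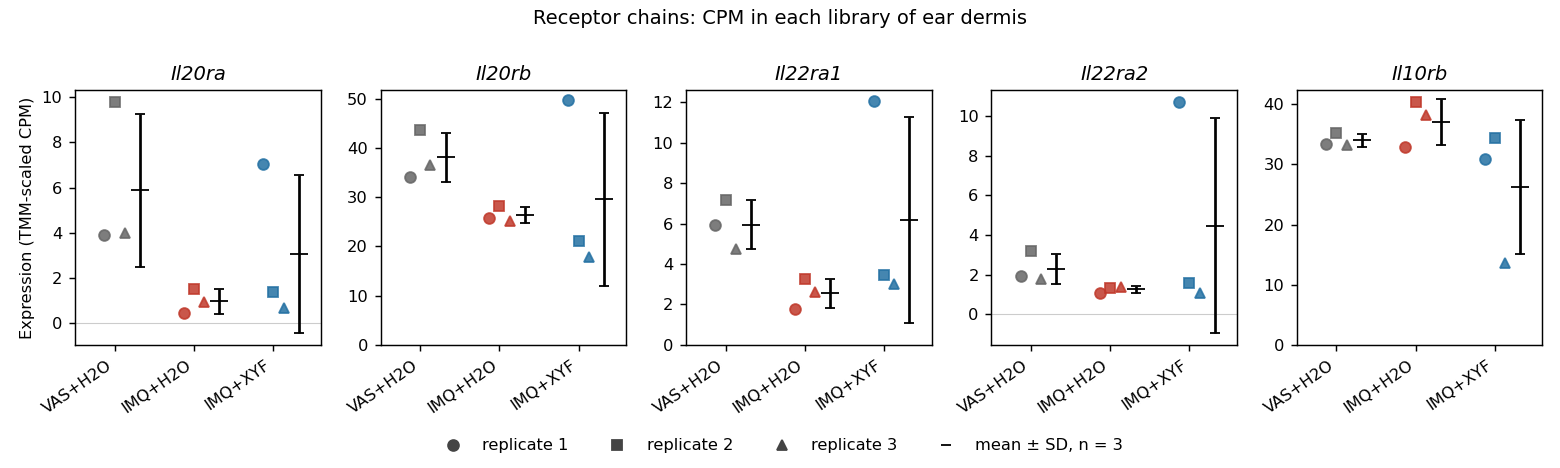
Expression of the 5 receptor genes in TMM-scaled CPM (vertical axes, linear, each with its own range) in the 3 groups; points are libraries, shaped by replicate number, and bars give the mean ± SD (n = 3). Il20ra, Il20rb, Il22ra1 and Il22ra2 are lower in each IMQ+H2O library than in any VAS+H2O library, and IMQ+XYF replicate 1 (circle) is the highest of its group for these 4 genes.

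The 4 receptor genes Il20ra, Il20rb, Il22ra1 and Il22ra2 were each lower in every IMQ+H2O library than in any VAS+H2O library, and none was called. In all genes tested, 16.5% showed such separation in that direction. Il20ra, the chain specific to the type I receptor, had the largest difference: 3.88, 9.78 and 3.98 CPM in VAS+H2O against 0.448, 1.53 and 0.936 CPM in IMQ+H2O, with a log2 fold change of -2.58 (SE 0.87). DESeq2 called Il20ra lower, with 3.88% of its genes called in either direction, and edgeR did not.

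In IMQ+XYF, Il20ra was at 7.06, 1.40 and 0.682 CPM. Replicate 1 lay within the vaseline range and the other two within the IMQ+H2O range. The log2 fold change for XYF was 1.64 (SE 0.85; adjusted p = 0.476, edgeR), and it was 0.08 without IMQ+XYF replicate 1. Against VAS+H2O it was -0.94 (SE 0.81; adjusted p = 0.609).

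Il20rb, the chain shared by both IL-20 receptors, was at a higher CPM than Il20ra in every library. It was at 34.0, 43.7 and 36.5 CPM in VAS+H2O, 25.8, 28.3 and 25.1 CPM in IMQ+H2O, and 49.8, 21.2 and 17.8 CPM in IMQ+XYF. The IMQ+XYF libraries lay on both sides of all the others. The log2 fold change by imiquimod was -0.53 (SE 0.34), and for XYF it was 0.17 (SE 0.34; adjusted p = 0.868, edgeR), or -0.44 without IMQ+XYF replicate 1.

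The level of Il20ra relative to Il20rb, each per kilobase, was 0.189 to 0.388 in VAS+H2O and 0.0300 to 0.0937 in IMQ+H2O, ranges that did not overlap. In IMQ+XYF it was 0.0664 to 0.246 and overlapped both. The 2 chains of the type I receptor thus differed in how far they were below the vaseline level in IMQ+H2O.

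Il22ra1, which serves both IL-22 and the type II receptor, was at 5.94, 7.17 and 4.74 CPM in VAS+H2O, 1.79, 3.25 and 2.59 CPM in IMQ+H2O, and 12.05, 3.44 and 3.004 CPM in IMQ+XYF. Replicate 1 of IMQ+XYF was above every other library. The log2 fold change by imiquimod was -1.22 (SE 0.52). For XYF it was 1.27 (SE 0.52, unadjusted p = 0.037 and adjusted p = 0.403, edgeR), and it was 0.33 without IMQ+XYF replicate 1.

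Il22ra2, the gene of the secreted IL-22 binding protein, followed the same libraries. It was at 1.92, 3.17 and 1.78 CPM in VAS+H2O, 1.07, 1.33 and 1.38 CPM in IMQ+H2O, and 10.7, 1.59 and 1.09 CPM in IMQ+XYF. Its log2 fold change by imiquimod was -0.85 (SE 0.78). For XYF it was 1.82 (SE 0.78, unadjusted p = 0.045 and adjusted p = 0.420, edgeR), and it was 0.08 without IMQ+XYF replicate 1. The ratio of Il22ra2 to Il22ra1 per kilobase was 0.332 to 0.454 in VAS+H2O, 0.422 to 0.613 in IMQ+H2O and 0.372 to 0.914 in IMQ+XYF, and the ranges overlapped.

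Il10rb, the widely expressed chain shared by the receptors of IL-10, IL-22 and interferon lambda, was at 33.5, 35.3 and 33.3 CPM in VAS+H2O and 32.9, 40.3 and 38.2 CPM in IMQ+H2O, with a log2 fold change by imiquimod of 0.13 (SE 0.29) and overlapping groups. In IMQ+XYF it was at 30.9, 34.4 and 13.6 CPM, so replicate 3 stood below all other libraries. The log2 fold change for XYF was -0.50 (SE 0.29; adjusted p = 0.508, edgeR), and -0.18 without IMQ+XYF replicate 3. Gm21970, which overlaps 569 exonic bases of Il10rb on the same strand, had 0 counts in every library.

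No member was called for XYF (0 of 10 by edgeR and 0 by DESeq2, with 0.00892% and 1.14% of all genes called). At an unadjusted p under 0.05 there were 2 members, Il22ra1 and Il22ra2, against 11.7% of all genes. The median log2 fold change of the 10 members was 0.43 for XYF, beside 0.01 over all genes tested. In IMQ+XYF against VAS+H2O, 3 members (Il19, Il24 and Il22) had an unadjusted p under 0.05, against 18.3% of all genes. This count carries no weight of its own. The family was chosen for Il19, and Il24 and Il22, with no vaseline count, passed the filter on low counts only through imiquimod-treated libraries. The receptor genes Il20rb, Il22ra1, Il22ra2 and Il10rb had log2 fold changes there of -0.36 (SE 0.34), 0.06 (SE 0.51), 0.97 (SE 0.76) and -0.37 (SE 0.29), and their adjusted p-values ran from 0.556 to 0.973 (edgeR).

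**Figure D3:**
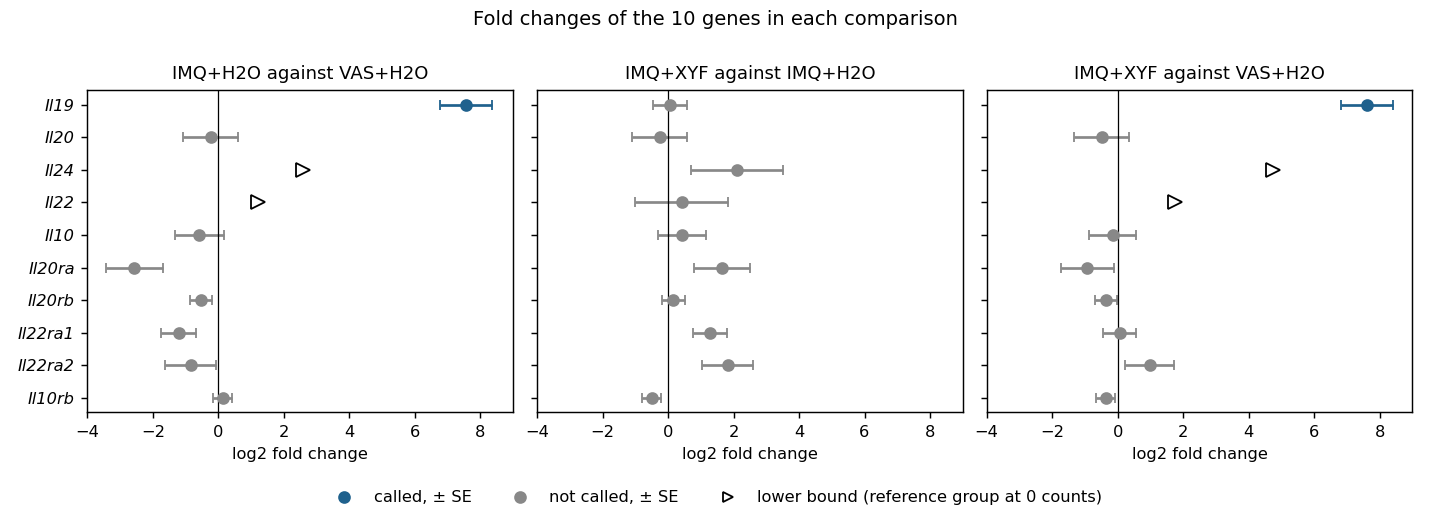
Log2 fold changes (horizontal axes) of the 10 genes in the 3 comparisons, from the edgeR fit of all 9 libraries, with SE as bars; blue marks a call, grey none, and open triangles give the lower bound where the vaseline group had 0 counts. Il19 stands at 7.55 and 7.61 in the comparisons with VAS+H2O and at 0.06 in the comparison of the imiquimod-treated groups.

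**Figure D4:**
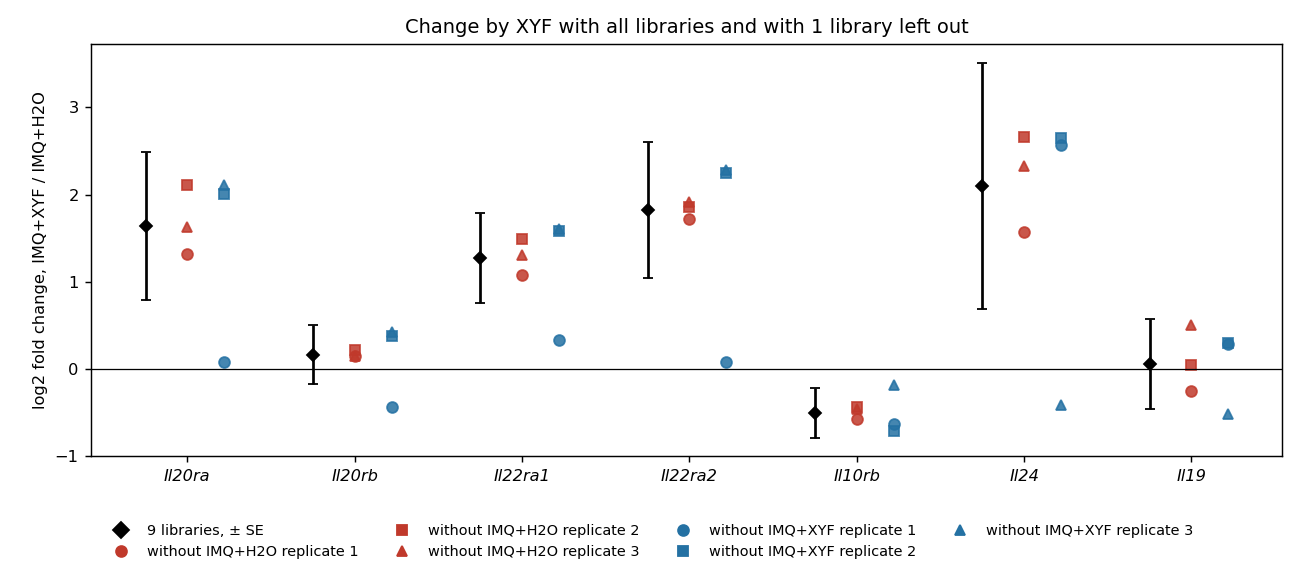
Log2 fold change of IMQ+XYF against IMQ+H2O (vertical axis) for 7 genes: the fit of all 9 libraries with its SE (black), and fits with 1 IMQ+H2O library (red) or 1 IMQ+XYF library (blue) left out. Without IMQ+XYF replicate 1 the values of Il20ra and Il22ra2 drop to 0.08, and without IMQ+XYF replicate 3 that of Il24 drops to -0.41.

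The levels of Il20ra, Il20rb, Il22ra1 and Il22ra2 were lower in IMQ+H2O and high in IMQ+XYF replicate 1, and so was the level of keratinocyte transcripts. The sum of the 10 keratinocyte markers (Krt5, Krt14, Krt15, Krt1, Krt10, Trp63, Cdh1, Dsg3, Perp and Epcam, all detected) was 4287 to 7163 CPM in VAS+H2O and 2535 to 3798 CPM in IMQ+H2O. In IMQ+XYF it was 15541, 4239 and 5616 CPM, and replicate 1, with the highest sum, was also the library with the highest Il20rb, Il22ra1 and Il22ra2. None of the 10 markers was called by edgeR in any comparison. At an unadjusted p under 0.05 there were 1 by imiquimod, 7 by XYF and 4 in IMQ+XYF against VAS+H2O. The shares of all genes were 20.9%, 11.7% and 18.3%. DESeq2 called 0 by imiquimod and 2 by XYF, Krt10 and Krt14, both higher. In IMQ+XYF against VAS+H2O it called 2 in opposite directions, Krt1 higher and Krt15 lower. Krt15 was at 229 to 533 CPM in VAS+H2O and 69.7 to 261 CPM in IMQ+XYF. Hair follicle markers also moved: 6 of 6 were detected, their sum was 69.2 to 258 CPM in VAS+H2O, 0.0585 to 16.8 CPM in IMQ+H2O and 0.0814 to 2.45 CPM in IMQ+XYF, and 4 were called lower by imiquimod, against 0.348% of all genes. Cartilage markers summed to 759 to 1359 CPM in VAS+H2O, 233 to 370 CPM in IMQ+H2O and 448 to 1331 CPM in IMQ+XYF (2 of 5 tested called lower by imiquimod, 1 of 6 at 0 in all libraries). Sebaceous gland markers, 5 of 5 detected, summed to 8009 to 12019, 5546 to 6460 and 3853 to 6638 CPM, and 0 were called by imiquimod. Endothelium and adipocyte sums were higher in every IMQ+H2O library than in any VAS+H2O library, with 0 markers called. Endothelium markers summed to 504 to 833, 1065 to 1161 and 407 to 1019 CPM in the same order, with a median log2 fold change by imiquimod of 0.73. Adipocyte markers summed to 283 to 483, 654 to 802 and 264 to 604 CPM, but their median log2 fold change by imiquimod was only 0.08. Skeletal muscle markers, with 0 called, summed to 456 to 2158, 1026 to 2216 and 96.3 to 652 CPM, lowest in IMQ+XYF replicate 1. Their VAS+H2O and IMQ+H2O ranges overlapped.

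Levels per 1000 CPM of keratinocyte markers, a scale added after the data were seen, differed in direction among the receptor genes. The markers Krt1 and Krt10 are also among the genes known to fall with IL-22 or IL-20 cytokines. Krt10 alone gave 6179 of the 15541 CPM in IMQ+XYF replicate 1. Il20ra remained lower with imiquimod: 0.793 to 1.37 in VAS+H2O against 0.177 to 0.402 in IMQ+H2O and 0.121 to 0.454 in IMQ+XYF. Il22ra1 was at 1.001 to 1.21, 0.707 to 0.896 and 0.535 to 0.811 in the same order, so that both imiquimod-treated groups again lay below the vaseline group.

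Il22ra2 on this scale had group means of 0.416 ± 0.025, 0.417 ± 0.064 and 0.419 ± 0.250 (SD, n = 3 each), and its groups overlapped. Il20rb was at 6.10 to 8.50 in VAS+H2O, 7.44 to 10.2 in IMQ+H2O and 3.17 to 4.995 in IMQ+XYF, where the last range lay below both others. For these 4 genes, the mean log2 level of the same markers, used in place of their sum, left the same groups overlapping or separate. Il10rb was at 4.93 to 7.76 in VAS+H2O, 10.6 to 13.2 in IMQ+H2O and 1.99 to 8.11 in IMQ+XYF. On this scale it was thus higher in IMQ+H2O than in both other groups. In CPM, however, its VAS+H2O and IMQ+H2O groups overlapped, and the keratinocyte sum that divides it was lower in IMQ+H2O. The part of these cell types in the receptor levels was not tested.

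**Figure D5:**
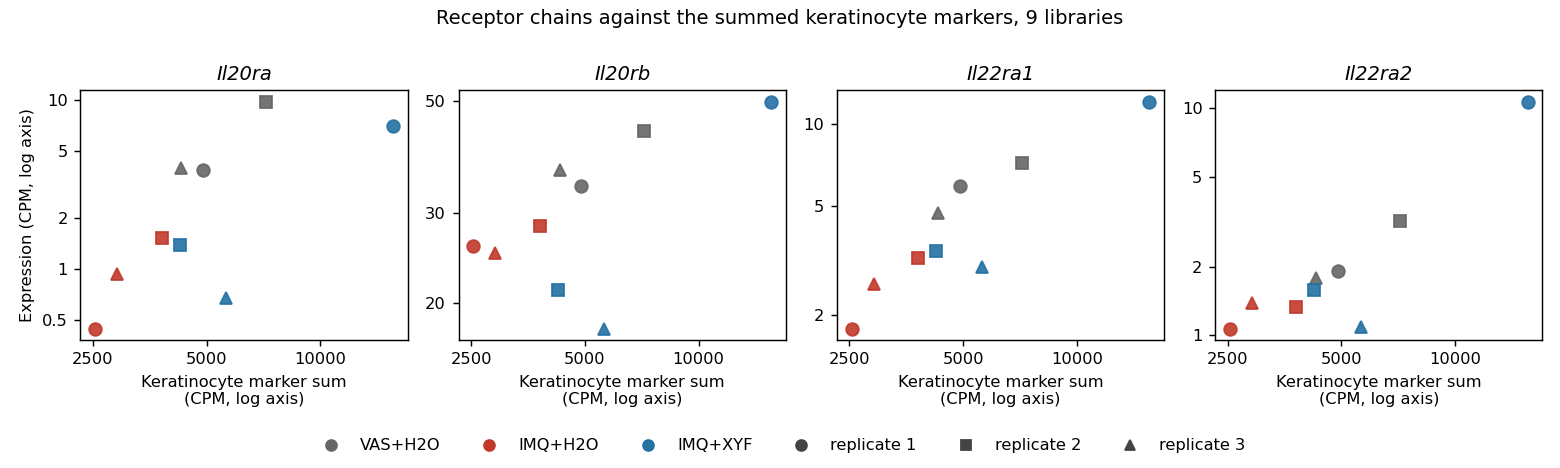
Level of Il20ra, Il20rb, Il22ra1 and Il22ra2 (CPM, log axis) against the summed CPM of 10 keratinocyte markers (log axis) in the 9 libraries, coloured by group and shaped by replicate number. The IMQ+XYF replicate 1 library, at a marker sum of 15541 CPM, is at the far right of each panel, and for Il20ra the vaseline libraries lie above the imiquimod-treated libraries of like marker sum.

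Per kilobase of exon, the order of the members also changed. In VAS+H2O the highest levels were those of Il20rb (9.04 ± 1.20 CPM per kb, SD, n = 3) and Il10rb (8.93 ± 0.29), which did not differ beyond their spread. Il20ra (2.42 ± 1.39) and Il22ra1 (2.32 ± 0.47) came next and also overlapped, followed by Il10, Il22ra2 and Il20. Il19 (0.036 ± 0.036) stood above only Il24 and Il22, which had no counts.

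In IMQ+H2O, Il19 (6.86 ± 3.44 CPM per kb) stood between Il10rb (9.75 ± 1.004) and Il20rb (6.28 ± 0.39) and overlapped both. In IMQ+XYF, Il19 (7.17 ± 4.09), Il20rb (7.03 ± 4.18) and Il10rb (6.90 ± 2.92) lay within the spread of each other. Il22 was lowest in both groups. With the longest transcript as the length, Il19 came behind both Il20rb and Il10rb in each imiquimod-treated group.

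Among the other genes of the class II cytokine family, 12 were listed and 7 were tested, and neither edgeR nor DESeq2 called any in the 3 comparisons. At an unadjusted p under 0.05 there were 2 by imiquimod, 1 by XYF and 0 in IMQ+XYF against VAS+H2O, where the shares of all genes were 20.9%, 11.7% and 18.3%. Il10ra, which pairs with Il10rb in the IL-10 receptor, was at 8.11 to 24.4 CPM over the 9 libraries, with a log2 fold change of 0.03 (SE 0.40) by imiquimod and -0.54 (SE 0.41; adjusted p = 0.605, edgeR) by XYF.

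Of 13 JAK-STAT genes, all were tested and edgeR and DESeq2 called 0 in each comparison. In the order above, 1, 0 and 2 were at an unadjusted p under 0.05, against 20.9%, 11.7% and 18.3% of all genes. Stat3, the transcription factor activated by these receptors, was at 145 to 304 CPM and had a log2 fold change of 0.36 (SE 0.20) by imiquimod and 0.13 (SE 0.20; adjusted p = 0.819) by XYF. Socs3, a feedback inhibitor induced by STAT3, was at 413 to 702 CPM, with -0.46 (SE 0.17) by imiquimod and 0.27 (SE 0.17; adjusted p = 0.540) by XYF.

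The cytokines and factors known to act upstream of the family, 13 genes that include Il17a, Il23a and Il1b, had 0 calls by edgeR in each comparison. At an unadjusted p under 0.05 there were 3, 0 and 5, against 20.9%, 11.7% and 18.3% of all genes. Their median log2 fold change was 0.79 by imiquimod, 0.28 by XYF and 1.16 in IMQ+XYF against VAS+H2O, beside medians of -0.02, 0.01 and -0.02 over all genes. DESeq2 called 2 of them by imiquimod, Il17a and Il12b, which encode the cytokine of type 17 lymphocytes and a subunit of IL-23. In IMQ+XYF against VAS+H2O it called Il1a and Il36g, of the IL-1 family, and by XYF none.

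Epidermal genes known to rise with IL-22 or IL-20 cytokines numbered 12, of which 10 were tested. S100a8 and S100a9, which encode the calprotectin subunits and are also abundant in neutrophils, and Lcn2, which encodes the antimicrobial lipocalin 2, were called higher with imiquimod, at log2 fold changes of 5.22 (SE 0.76), 5.20 (SE 0.76) and 3.22 (SE 0.23). In that contrast edgeR called 0.646% of all genes higher. S100a8 and S100a9 lost their calls when any of 5 libraries was left out, whereas Lcn2 kept it in each leave-out fit. The summed neutrophil markers were higher in the same libraries, and which cells gave the S100a8, S100a9 and Lcn2 transcripts was not tested. Krt6b and Krt16, keratins of hyperproliferative epidermis, were not called by edgeR for imiquimod (log2 fold changes of 2.69, SE 0.87, and 2.53, SE 0.66), but were called by DESeq2 and, with Krt6a, by edgeR with 2 groups in the fit.

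In IMQ+XYF against VAS+H2O, these 3 genes and the keratin genes Krt6b (5.03, SE 0.96; adjusted p = 0.042, edgeR) and Krt16 (4.59, SE 0.72; adjusted p = 0.029) rose, with 0.695% of all genes called higher. Lcn2 alone was called without IMQ+XYF replicate 1, the library with the highest keratinocyte marker sum, and likewise without IMQ+XYF replicate 3, VAS+H2O replicate 2 or VAS+H2O replicate 3. Krt16 was also not called without VAS+H2O replicate 1 or IMQ+H2O replicate 2, and of the leave-out fits Krt6b was called only in that without IMQ+XYF replicate 2. Between the imiquimod-treated groups edgeR called none of the 10, and DESeq2 called Krt16. There, 6 were at an unadjusted p under 0.05, against 11.7% of all genes.

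Of the 5 genes known to fall with these cytokines (Krt1, Krt10, Flg, Flg2 and Lor, all of keratinocyte differentiation), edgeR called 0 in each comparison. At an unadjusted p under 0.05 there were 0, 2 and 1, against 20.9%, 11.7% and 18.3% of all genes. DESeq2 called Krt10 higher with XYF and Krt1 higher in IMQ+XYF against VAS+H2O.

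No gene flanking the chromosome 1 cluster was called by edgeR. Of 28 genes within 250 kb on each side of the cluster, 17 besides the members were tested. At an unadjusted p under 0.05 there were 5 by imiquimod, 4 by XYF and 1 in IMQ+XYF against VAS+H2O. The shares of all genes were 20.9%, 11.7% and 18.3%. DESeq2 called 0 in each. The kinase gene Mapkapk2, the nearest expressed gene beyond Il10, was at 115 ± 11.7, 134 ± 11.6 and 132 ± 17.4 CPM (SD, n = 3) in VAS+H2O, IMQ+H2O and IMQ+XYF. On the other side Fcmr, next to Il24, was at 0.296 ± 0.163, 0.089 ± 0.085 and 0.207 ± 0.049 CPM.

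The genes whose pattern was most like that of a cytokine gene were found by the root mean square difference of centred log2 CPM over the 9 libraries. For Il19 these were Stfa2l1 (0.70), S100a8 (0.75) and S100a9 (0.77), set beside a standard deviation of 3.21 for Il19 itself. For Il24 they were Sprr2f (0.80), Krt6b (1.01) and Stfa2 (1.15), beside a standard deviation of 2.36. Stfa2l1, Sprr2f and Stfa2 had no count in the vaseline libraries, as with Il24. The likeness is a description: the 9 points share libraries and the group structure of the study.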

How the data were processed

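RNA from ear dermis was sequenced in 9 libraries, 3 per group. The values are counts of reads per gene, deposited by the authors as whole numbers without normalization. The submitters' processing notes name FastQC, STAR 2.5, Cuffnorm, DESeq 1.22.1 and the GRCm38 assembly, without stating which tool made the counts or whether strand was used in counting. Reads of a gene and of a gene on the opposite strand may therefore be mixed.

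Genes were filtered with filterByExpr (minimum count 10), scaled by TMM and tested with edgeR 4.0.16 (R 4.3.3), by quasi-likelihood with a coefficient per group over all 9 libraries. A call needed a Benjamini-Hochberg adjusted p of at most 0.05 over 22430 genes and an absolute log2 fold change of at least 1. The fit was tested on simulated data. Alternatives were DESeq2 1.42.0, its size factors, no filter, 2 groups in the fit, a replicate block and each library left out. Levels per kilobase used exon unions. Coordinates are from GRCm38 (GENCODE vM21).

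All 10 members are named, with genes of their pathway lists called by edgeR, Il10ra, Stat3, Socs3 and Iltifb, and the 3 genes most alike. Genes called by DESeq2 alone, flanking genes and the promoter shown were chosen after their values were seen. The members and lists were chosen with earlier results of these data known. A gene of the upstream list is not reported here. The deposited replicate numbers were not shown to pair the samples: deviations of same-numbered libraries correlated at -0.18 to 0.12.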

Additional observations from a re-analysis of the deposited data

How the results depend on the processing

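The count of members called was 1 for imiquimod (Il19), 0 for XYF and 1 in IMQ+XYF against VAS+H2O (Il19), and these counts were the same with the size factors of DESeq2 in edgeR, with no filter on low counts, with 2 groups in the fit and with the replicate block. DESeq2 called 2 members for imiquimod (Il19 and Il20ra) and 2 in IMQ+XYF against VAS+H2O (Il19 and Il24). With 1 library left out, the count ran from 0 to 1 in both of these comparisons, at 0 without VAS+H2O replicate 3 in both and without VAS+H2O replicate 2 in the second, and stayed at 0 for XYF. The cause was not tested. Genes of the pathway lists numbered 3 called for imiquimod, 0 for XYF and 5 in IMQ+XYF against VAS+H2O. DESeq2 gave 7, 2 and 11, and 2 groups in the fit gave 6, 0 and 1. With 1 library left out they ran from 1 to 4 for imiquimod and from 1 to 9 in IMQ+XYF against VAS+H2O, with 9 without IMQ+XYF replicate 2.

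The replicate numbers were not shown to mark shared animals or days, and under the replicate block 1 pathway gene (Lcn2) was called in IMQ+XYF against VAS+H2O. Over all genes the block gave 86, 0 and 54 calls in place of 223, 2 and 270. It turned the log2 fold change of Il10 in that comparison to 0.28 and that of Il22ra1 to -0.10, neither of them called.

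The sign of these members' changes turned with 1 library left out. For imiquimod the log2 fold change ran from -0.69 to 0.30 for Il20 and from -1.32 to 0.36 for Il10. For XYF it ran from -0.52 to 0.51 for Il19, -0.79 to 0.20 for Il20, -0.41 to 2.66 for Il24, -0.082 to 1.05 for Il22 and -0.44 to 0.43 for Il20rb. In IMQ+XYF against VAS+H2O it ran from -0.60 to 0.79 for Il10, -0.88 to 0.39 for Il22ra1 and -0.77 to 1.44 for Il22ra2. None of these values was called. Il24 and Il22 could not be fitted against VAS+H2O with 2 groups in the fit, nor Il22 without IMQ+XYF replicate 2, because they did not pass the filter. Over all genes, DESeq2 called 945, 223 and 701, 2 groups in the fit 496, 1 and 33, and the fits with 1 library left out 25 to 455 for imiquimod, 0 to 4 for XYF and 12 to 592 in IMQ+XYF against VAS+H2O. Il22 and Il20 rested on at most 24 and 39 counts per library, so differences of a few counts were not detectable.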
